A study of Homo sapiens with 15 samples.

Results

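The 82 genes described here encode the motor proteins of the cytoskeleton: the kinesins (KIF), the myosins (MYH and MYO), and the subunits of cytoplasmic dynein (DYNC and DYNL). They were chosen by name from the protein-coding genes of the files. A gene had to start with KIF, MYH or MYO followed by a digit, or with DYNC or DYNL, under its current symbol. Of 97 genes with such a name, 82 reached 10 counts in 2 or more libraries of all 5 groups, and these are among 16612 genes kept of 57500 in all. The 15 genes that missed this minimum were DYNLRB2, DYNLT5, KIF12, KIF19, KIF2B, KIF4B, MYH6, MYH7, MYO15A, MYO16, MYO1A, MYO1G, MYO1H, MYO3B and MYO5C, whose counts reached at most 72 in any library. The 82 kept genes were 35 kinesins, 12 class II myosins, 18 unconventional myosins and 17 dynein subunits.

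Motor proteins turn ATP hydrolysis into movement along filaments. Kinesins mostly walk to the plus ends of microtubules, cytoplasmic dynein walks to the minus ends, and myosins pull on actin. The motor itself sits in a long chain (the heavy chain of dynein and of class II myosin, the kinesin heavy chain), while short accessory chains bind its tail or neck and link it to cargo. Cytoplasmic dynein 1 carries a heavy chain, intermediate chains, light intermediate chains and 3 families of light chains (DYNLL, DYNLRB and DYNLT). Dynein 2 is a related motor of the primary cilium. mRNAs that encode large and small subunits of one machine therefore differ in length, and stress granules, the RNA-protein condensates that form when translation initiation stops, are known for holding long mRNAs.

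Cytosolic extracts (CEs) of U2OS, a human osteosarcoma cell line labelled as wild type, were left untreated (mock) or received 250 nM double-stranded RNA (dsRNA, an activator of the kinase PKR), 2 µg/ml silvestrol (an inhibitor of the helicase eIF4A) or 1% polyethylene glycol (PEG, a molecular crowder). After 2 h at 37 °C the reactions were spun at 14000 g for 10 min at 4 °C, and poly(A) RNA was sequenced from the washed pellets and from input CE that was not pelleted. Each group held 3 libraries, described as biological replicates, 15 in all. The study names the sequenced pellets after YFP-G3BP1, a tagged stress granule protein, so the U2OS line behind the extract is not settled by the labels. All groups come from 1 cell line, the pellets hold whatever sedimented at that force, and whether the input was incubated is not given in the sources used here.

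Total counts per library ranged from 23101982 to 46939993 in input, from 32477292 to 45319526 in the mock, dsRNA and silvestrol pellets, and from 15341973 to 25675182 in the PEG pellets. Of 7 osteoblast-lineage markers, RUNX2, COL1A1, SPARC and ALPL passed the count minimum, while COL1A2, SP7 and BGLAP stayed at or below 23 counts in every library. The summed markers reached 1014 to 1314 CPM (counts scaled to a common library total) in input, 1834 to 2421 in the mock, dsRNA and silvestrol pellets and 915 to 994 with PEG. COL1A1 made this difference, with means of 583 CPM in input, 1337, 1516 and 1524 in those pellets and 274 with PEG. The means of RUNX2 and ALPL were below input in every pellet. SPARC was at 546 CPM in input, at 565, 515 and 561 in the first 3 pellets and at 638 with PEG. Of 6 striated muscle markers only TNNT1 passed, and the list summed to 497 to 565 CPM in input, 290 to 487 in the mock, dsRNA and silvestrol pellets and 907 to 985 with PEG. Of 6 hepatocyte markers only SERPINA1 passed. The part of these markers in the results was not tested.

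Reads on the 82 motor genes made up 0.825% ± 0.0332 (SD, n = 3) of all counts in input. The share was 1.10% ± 0.0397 in mock pellets, 1.15% ± 0.0249 with dsRNA, 1.13% ± 0.07 with silvestrol and 0.522% ± 0.0589 with PEG. No pellet library overlapped the inputs. Every value below is such a share of the sequenced poly(A) RNA, so a higher value in a pellet cannot be told apart from a loss of other RNA.

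One pair of dynein light chains with equal coding lengths, of which only DYNLL1 was called against input, is described first. DYNLL1 (ENSG00000088986, chr12:120469850-120498493, plus strand, GRCh38) and DYNLL2 (ENSG00000264364, chr17:58083415-58095536, plus strand) encode the LC8 light chains, small dimeric proteins that bind the dynein intermediate chain and many other partners. Their coding sequences, from the GENCODE 29 transcripts, are both 270 nt long with the stop codon and match at 215 positions (79.6%), and 49 of the 55 differences fall on the third base of a codon. The coding exons span chr12:120496422-120498210 and chr17:58087091-58089279. The sequences are printed because the coding parts are so alike while the rest is not: the exons of DYNLL1 add up to 2957 nt and those of DYNLL2 to 6805 nt. Coding lengths from here on leave out the stop codon. Capitals mark the bases that differ between them.

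DYNLL1: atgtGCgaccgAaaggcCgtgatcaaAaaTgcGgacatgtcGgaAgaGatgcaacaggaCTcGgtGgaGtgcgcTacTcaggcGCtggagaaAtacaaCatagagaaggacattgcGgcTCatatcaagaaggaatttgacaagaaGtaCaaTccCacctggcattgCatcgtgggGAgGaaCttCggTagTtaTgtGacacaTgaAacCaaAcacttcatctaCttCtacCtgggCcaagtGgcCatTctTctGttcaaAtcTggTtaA
DYNLL2: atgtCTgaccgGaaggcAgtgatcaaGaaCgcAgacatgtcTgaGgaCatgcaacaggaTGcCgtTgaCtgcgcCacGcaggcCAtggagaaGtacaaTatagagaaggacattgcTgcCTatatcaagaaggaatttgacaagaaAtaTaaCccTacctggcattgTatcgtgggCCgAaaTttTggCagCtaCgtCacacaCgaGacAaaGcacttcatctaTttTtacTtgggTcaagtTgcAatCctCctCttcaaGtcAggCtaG

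In input, DYNLL1 was at 275, 222 and 222 CPM, after TMM scaling as for all CPM from here on. It was at 128, 114 and 110 CPM in mock pellets, at 114, 110 and 111 CPM with dsRNA, at 101, 103 and 119 CPM with silvestrol and at 363, 445 and 439 CPM with PEG. All mock, dsRNA and silvestrol libraries lay below the inputs and all PEG libraries above them. The log2 fold change against input was -0.99 ± 0.13 (SE) in mock, -1.06 ± 0.13 with dsRNA, -1.12 ± 0.14 with silvestrol and 0.84 ± 0.15 with PEG, with adjusted p-values of 0.0036, 0.0024, 0.0024 and 0.0023 (edgeR's quasi-likelihood F test, Benjamini-Hochberg adjustment over all 16612 genes). These calls held in every fit with 1 library left out.

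DYNLL2 was at 496, 437 and 485 CPM in input, at 589, 485 and 461 CPM in mock pellets, at 575, 495 and 492 CPM with dsRNA, at 587, 488 and 463 CPM with silvestrol and at 380, 336 and 407 CPM with PEG. The mock, dsRNA and silvestrol libraries overlapped the inputs, and the PEG libraries lay below them. None of its changes against input passed the test (log2 fold changes of 0.15 ± 0.13, 0.18 ± 0.13, 0.15 ± 0.14 and -0.29 ± 0.13, adjusted p between 0.098 and 0.43). The log2 ratio of DYNLL2 to DYNLL1 within a library was 0.98 ± 0.14 (SD, n = 3) in input, against 2.12 ± 0.0741 in mock, 2.22 ± 0.104 with dsRNA and 2.25 ± 0.289 with silvestrol and -0.15 ± 0.24 with PEG. No pellet group overlapped the input for this ratio, and the exact two-sided permutation test gave p = 0.1 for each of the 4 pellets, the smallest that 3 against 3 libraries allow. Within-library ratios do not depend on the scaling between libraries. Reads of near-identical gene copies could not be checked in the files.

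Of the 67 kinesins, myosins and dynein heavy chains, the long chains of these motors, 22 rose and 3 fell in mock pellets, 28 and 3 with dsRNA, and 23 and 3 with silvestrol. Of the 8 dynein light chains none rose there, and 3, 4 and 4 fell. In mock pellets 24 of the 82 motor genes rose against input and 8 fell, where 17.6% of all genes rose and 15.8% fell. In dsRNA pellets 30 rose and 10 fell, against 21.1% and 19.6% of all genes. In silvestrol pellets 25 rose and 9 fell, against 19.4% and 18.1% of all genes. The median log2 fold change of the 82 genes was 0.36, 0.39 and 0.35, while that of all genes tested was 0.00 in each. With the replicate number as a block, 43 rose and 17 fell in mock pellets, against 32.5% and 30.1% of all genes, and 43 rose and 17 fell in silvestrol pellets, against 30.8% and 28.7%. Single libraries moved these counts, and statements on a library left out refer to the 6 fits of each comparison that leave out 1 in turn. Those fits did not use the block, so differences between replicate numbers stayed in their spread. Against 32 genes called in mock pellets, 19 were called without input replicate 2, 18 without input replicate 3, 18 without mock replicate 2 and 15 without mock replicate 3, counted anew in each fit. The count of 40 with dsRNA became 25 without dsRNA replicate 3, and the count of 34 with silvestrol became 22 without input replicate 2, input replicate 3 or silvestrol replicate 3.

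With PEG 5 of the 67 long chains rose and 28 fell, and 5 of the 8 light chains rose and 1 fell. Against input 15 motor genes rose and 30 fell, where 25.5% of all genes rose and 25.9% fell, and against mock 15 rose and 43 fell, where 31.3% and 32.2% did. The median log2 fold change of the 82 genes was -0.35 against input and -0.56 against mock. PEG libraries differed in composition, and scaling by library size only moved the median of all genes to -0.35 against input and to -0.49 against mock. Under that scaling 7 motor genes rose and 46 fell against input, and 9 rose and 58 fell against mock.

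A fit with a GC offset, a correction for each gene's GC content, changed many calls. Under it 17 motor genes rose and 4 fell in mock pellets, where 13% of all genes rose and 13.8% fell. With dsRNA 24 rose and 5 fell, against 15.9% and 17.6% of all genes, and with silvestrol 23 rose and 4 fell, against 14% and 15.9%. With PEG 13 rose and 32 fell, against 23.2% and 27%. Of the calls made without the offset, 16 of 32 were lost in mock, 16 of 40 with dsRNA, 15 of 34 with silvestrol and 7 of 45 with PEG. With the offset and the replicate block in the same fit, 2, 3, 3 and 5 of those calls were lost. The offset left the median log2 fold change of the long chains at 0.31, 0.36, 0.38 and -0.42 and that of the light chains at -0.31, -0.33, -0.32 and 0.62. Where it took a named call away, its value stands beside the gene.

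Of the 82 genes, 23 rose in each of the mock, dsRNA and silvestrol pellets and 7 fell in each. None rose in one of these pellets and fell in another. Of the 23, 12 fell with PEG (KIF1A, KIF5A, KIF5B, KIF16B, KIF18B, KIF26A, MYH9, MYH10, MYH14, MYO9B, MYO18A and MYO18B). Of the 7, 5 rose with PEG (DYNLL1, DYNLRB1, DYNLT1, DYNC1LI1 and KIF9). The genes DYNC2I1, DYNC2I2 and KIF22 rose in all 4 pellets, and 22 genes passed the test in no pellet. With the GC offset 17 rose in each of the first 3 pellets and 4 fell in each, DYNLL1, DYNLRB1, DYNLT1 and KIF9, and with the offset and the block 44 and 8 did. These comparisons share the 3 input libraries. The share of all genes with these patterns is not given here, so the counts stand without a background.

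The contrast of long motor chains with short light chains was read within each library, as the median log2 ratio to the mean of the inputs over the 67 kinesins, myosins and dynein heavy chains, less the same over the 8 dynein light chains. The 67 have coding sequences of 1152 to 13938 nt and the 8 of 267 to 663 nt. The difference was 1.05, 0.73 and 1.00 in the mock libraries, 1.23, 1.01 and 0.98 with dsRNA, 1.15, 0.83 and 1.06 with silvestrol and -0.78, -1.27 and -1.14 with PEG. All 9 libraries of the first 3 pellets were above 0 and all 3 PEG libraries were below it. The means were 0.93 ± 0.17 (SD, n = 3), 1.07 ± 0.14, 1.01 ± 0.16 and -1.06 ± 0.25. The mean of the light chain median was -0.55, -0.65 and -0.61 in mock, dsRNA and silvestrol pellets and 0.60 with PEG. That of the long chain median was 0.38, 0.43 and 0.40, and -0.47 with PEG.

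Of the 10 genes of cytoplasmic dynein 1, 1 rose in each of the mock, dsRNA and silvestrol pellets, and 5, 6 and 6 fell. With PEG 5 rose and 1 fell. The 1 that rose in the first 3 pellets was the heavy chain. Shares of all genes that rose in mock, dsRNA, silvestrol and PEG pellets were 17.6%, 21.1%, 19.4% and 25.5%. Those that fell made up 15.8%, 19.6%, 18.1% and 25.9%. DYNC1H1 (ENSG00000197102, chr14:101964528-102050792, plus strand) encodes the heavy chain, and its coding sequence of 13938 nt is the longest of the 82. It was at 212, 201 and 213 CPM in input, 298, 263 and 312 CPM in mock, 326, 280 and 317 CPM with dsRNA, 339, 246 and 299 CPM with silvestrol and 173, 155 and 168 CPM with PEG. Every mock, dsRNA and silvestrol library lay above the inputs and every PEG library below. The log2 fold change was 0.51 ± 0.11 in mock (edgeR adjusted p = 0.014), 0.60 ± 0.12 with dsRNA (0.0064) and 0.53 ± 0.14 with silvestrol (0.022). With PEG it was -0.29 ± 0.11, which missed the threshold (0.059), passed it with the replicate block (0.047) and was -0.42 with the GC offset (0.013), and against mock DYNC1H1 fell by 0.74 on the log2 scale (0.00049). The mock call was lost without input replicate 2 or 3 or mock replicate 3 (adjusted p up to 0.068), and the silvestrol call without input replicate 2 or 3 or silvestrol replicate 3 (up to 0.093).

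DYNLRB1, the roadblock light chain, was at 107, 94.9 and 97.9 CPM in input and between 40.7 and 49.2 CPM in all 9 mock, dsRNA and silvestrol libraries. With PEG it was at 138, 196 and 160 CPM. It fell by 1.17 in mock, 1.11 with dsRNA and 1.16 with silvestrol on the log2 scale and rose by 0.76 with PEG (edgeR adjusted p = 0.0036, 0.0024, 0.0024 and 0.0033). DYNLT1, a Tctex-type light chain, was at 101, 84.8 and 82.8 CPM in input, between 43.6 and 50.6 CPM in the same 9 libraries and at 125, 150 and 131 CPM with PEG. It fell by 0.84, 0.89 and 0.88 and rose by 0.64 with PEG (0.0039, 0.0028, 0.0027 and 0.0053), though with library size only the PEG change was 0.30 and did not pass. DYNLL1, DYNLRB1 and DYNLT1 were the only light chains that fell in all 3 pellets, and their falls held in each fit with 1 library left out.

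The other light chains were called in fewer pellets. DYNLT3, the second Tctex-type light chain of dynein 1, was at 56.1, 38.6 and 35.7 CPM in input and between 22.5 and 34.5 CPM in the mock, dsRNA and silvestrol libraries. Only its fall with silvestrol passed (-0.60 ± 0.20, adjusted p = 0.049), which 5 of the 6 fits with a library left out lost (all but that without input replicate 3), and with the replicate block its changes in mock (0.0052) and dsRNA (0.041) passed too. With the GC offset the silvestrol value was -0.37 (0.14), with the offset and the block -0.35 (0.07), and neither passed, nor did the value with library size only (-0.54). In PEG pellets DYNLT3 was at 16.2, 18.2 and 129 CPM, so PEG replicate 3 set the group's mean. The log2 fold change against input was 0.37 ± 0.69 with that library and -1.33 ± 0.23 without it (adjusted p = 0.0062). DYNLT2 (TCTE3) fell with dsRNA (-0.63 ± 0.18, adjusted p = 0.024), a call lost without replicate 2 or 3 of input or dsRNA (up to 0.079) and with the GC offset (-0.40, 0.084), and with PEG (-0.88 ± 0.20, 0.0063). Its values in mock (-0.54 ± 0.19, 0.0597) and silvestrol (-0.50 ± 0.18, 0.059) passed with the block (0.0068 and 0.016), and with the block and the offset neither did (0.062 and 0.14) while dsRNA did (0.034). DYNLT4 was counted at 0.0898 to 0.443 CPM in input and rose with PEG (1.31 ± 0.43, 0.03), a call lost without input replicate 2 or PEG replicate 2 or 3 (adjusted p up to 0.14), with library size only (0.98) or with the GC offset (0.93, 0.073). DYNLT2B shares 31.1% of its exon length with a readthrough gene.

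The intermediate chains join the heavy chain to dynactin and cargo. DYNC1I2, the widely expressed chain of dynein 1, was at 171, 120 and 124 CPM in input, 95.7, 89.6 and 90.6 CPM with dsRNA and 228, 247 and 275 CPM with PEG. It fell with dsRNA (-0.55 ± 0.16, edgeR adjusted p = 0.025, lost without dsRNA replicate 2 or 3 at up to 0.084 and with the GC offset, where it was -0.30 at 0.14) and rose with PEG (0.89 ± 0.17, 0.0031). Its changes in mock (-0.46 ± 0.16, 0.061) and silvestrol (-0.37 ± 0.15, 0.09) did not pass and passed with the replicate block (0.00017 and 0.02). With the block and the GC offset the dsRNA value passed (0.0038) and the silvestrol value did not (-0.13, 0.23). DYNC1I1, known from neurons, fell by 0.78, 0.84 and 0.89 in the 3 pellets (0.047, 0.03 and 0.038). Its calls were lost without input replicate 2 or 3, without any 1 mock or silvestrol library and without dsRNA replicate 1 or 3 (adjusted p up to 0.12), whereas its adjusted p with the block was at most 0.00017. With library size only its values were -0.72, -0.79 and -0.84 and none passed. With the GC offset the mock (0.063) and silvestrol (0.052) values did not pass, and with offset and block both did (7.7e-07 and 0.0001). Its PEG value of 0.47 ± 0.21 did not pass and passed with the block (0.0063).

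The 2 intermediate chains of dynein 2 rose in the mock, dsRNA and silvestrol pellets, where the values of both dynein 1 intermediate chains were below 0, and with PEG the values of all 4 were above 0. DYNC2I1 (WDR60) was at 16, 17.7 and 17.9 CPM in input and between 23.4 and 39.3 CPM in all 12 pellet libraries. It rose by 0.78 ± 0.16, 0.99 ± 0.13, 0.94 ± 0.16 and 0.75 ± 0.15 in mock, dsRNA, silvestrol and PEG pellets (edgeR adjusted p = 0.011, 0.0025, 0.0045 and 0.0029). DYNC2I2 (WDR34) rose by 0.53 ± 0.11, 0.59 ± 0.14, 0.56 ± 0.12 and 0.83 ± 0.12 (0.01, 0.013, 0.01 and 0.00075), from 254 ± 11.9 CPM (SD, n = 3) in input to 358 ± 17.6 in mock, 373 ± 57.5 with dsRNA, 368 ± 33.6 with silvestrol and 437 ± 11.6 with PEG. The DYNC2I2 calls in mock, dsRNA and silvestrol were lost without input replicate 2, and that in mock also without mock replicate 3 (adjusted p up to 0.059). With the GC offset its values were -0.06, -0.09 and -0.10 (0.81, 0.72 and 0.70), below 0, and 0.42 with PEG, which passed (0.038). With the offset and the block the first 3 did not pass either (0.52, 0.30 and 0.37). The coding sequences of DYNC2I1 and DYNC2I2 are 3198 and 1608 nt. The heavy chain of dynein 2, DYNC2H1, has a coding sequence of 12942 nt, and its values against input, 0.12 ± 0.14, 0.37 ± 0.14, 0.19 ± 0.13 and -0.42 ± 0.18, did not pass (0.53, 0.066, 0.3 and 0.078). With the replicate block the dsRNA (0.027) and PEG (0.023) values passed. With the block and the GC offset the values were 0.29, 0.59 and 0.41, which passed (0.0086, 0.00011 and 0.0021), and -0.11 with PEG (0.51).

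The light intermediate chains, which tie dynein to its activating adaptors, gave a second pair of close relatives. DYNC1LI1 was at 114, 81.2 and 87.8 CPM in input, between 56.7 and 68.8 CPM in the mock, dsRNA and silvestrol libraries and at 133, 129 and 136 CPM with PEG. It fell by 0.57, 0.59 and 0.63 on the log2 scale (edgeR adjusted p = 0.027, 0.015 and 0.013) and rose by 0.53 with PEG (0.02). Those falls were lost without replicate 2 or 3 of the pellet (adjusted p up to 0.0998), and the rise without input replicate 2 or 3 or PEG replicate 3 (up to 0.073) and with library size only (0.20). Corrected for GC content the falls were -0.37, -0.34 and -0.39 and did not pass (0.085, 0.073 and 0.059), and with offset and block they did (0.00024, 0.0017 and 0.0019). DYNC1LI2 was at 186, 146 and 146 CPM in input, between 141 and 179 CPM in the first 3 pellets, and at 83.1, 58.8 and 66.6 CPM with PEG. It fell with PEG by 1.16 ± 0.18 (0.001) and its other changes lay between -0.04 and 0.09. Their coding sequences are 1569 and 1476 nt and their exons 6132 and 8278 nt. Of the exon length of DYNC1LI2, 22.2% overlaps other genes, one of them a divergent transcript named for it, and the strand setting of the counts is not given in the sources used here. The log2 ratio of DYNC1LI2 to DYNC1LI1 was 0.77 ± 0.0742 (SD, n = 3) in input, 1.31 ± 0.0628 in mock, 1.44 ± 0.0446 with dsRNA, 1.34 ± 0.102 with silvestrol and -0.95 ± 0.237 with PEG, without overlap with input in any pellet (exact permutation p = 0.1 each, the smallest possible).

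Of the 12 class II myosins, which form bipolar filaments, 4 rose in mock, 5 with dsRNA and 5 with silvestrol pellets and none fell. The median log2 fold change was 0.56, 0.57 and 0.72, and -0.35 with PEG, where 3 fell and none rose. The 3 non-muscle heavy chains accounted for all 3 of the PEG falls. In mock, dsRNA, silvestrol and PEG pellets 17.6%, 21.1%, 19.4% and 25.5% of all genes rose, and 15.8%, 19.6%, 18.1% and 25.9% fell. MYH9 (ENSG00000100345, chr22:36281281-36388018, minus strand), the heavy chain of non-muscle myosin IIA, had the highest level per length of the 82 genes in input, at 184 ± 7.51 CPM per kb of exon (SD, n = 3). It was at 1653, 1582 and 1716 CPM in input, 2244, 2429 and 2617 CPM in mock, 2465, 2788 and 2809 CPM with dsRNA, 2511, 2564 and 2687 CPM with silvestrol and 903, 504 and 551 CPM with PEG. No pellet library overlapped the inputs. MYH9 rose by 0.59 ± 0.12, 0.74 ± 0.13 and 0.68 ± 0.13 (edgeR adjusted p = 0.011, 0.0039 and 0.0068) and fell with PEG (-1.29 ± 0.22, 0.0018). The mock call was lost without input replicate 2 or mock replicate 3 (up to 0.061). Under the GC offset the 3 rises were 0.30, 0.39 and 0.35 and did not pass (0.15, 0.080 and 0.12), and with offset and block they did (0.010, 0.013 and 0.026).

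MYH10, the heavy chain of non-muscle myosin IIB, was at 184, 153 and 163 CPM in input, 309, 264 and 310 CPM in mock, 325, 285 and 309 CPM with dsRNA, 339, 267 and 301 CPM with silvestrol and 108, 76.2 and 85.4 CPM with PEG. It rose by 0.86 ± 0.13, 0.92 ± 0.13 and 0.89 ± 0.14 and fell with PEG (-0.85 ± 0.16), with edgeR adjusted p-values of 0.0043, 0.0026, 0.0035 and 0.0029. MYH14, the third non-muscle heavy chain, rose by 0.76, 0.87 and 0.91 and fell with PEG (-1.35 ± 0.22, 0.0013). Corrected for GC content its rises were 0.28, 0.30 and 0.37 and did not pass (0.23, 0.18 and 0.15), and with offset and block they did (0.0019, 0.0046 and 0.0019). The other 9 class II genes are heavy chains of skeletal or smooth muscle and their relatives, and each had a mean of at most 6.41 CPM in input. Of these, MYH3 rose in all 3 pellets and MYH7B in 2 of them. Their calls were weakly held: for MYH3 only the fit without mock replicate 1 kept the mock call, and for MYH7B only the fits without replicate 1 of the pellet kept the dsRNA and silvestrol calls (adjusted p up to 0.13). Under the GC offset the MYH7B values were 0.45 and 0.47 and did not pass (0.20 and 0.16), and with offset and block they did (0.0099 and 0.011). The skeletal muscle heavy chains are close in sequence, so how the counting split their reads limits their values.

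The 18 unconventional myosins, single motors and transporters of membrane and actin, gave 6 rises and 1 fall in mock, 8 and 1 with dsRNA, and 6 and 1 with silvestrol. With PEG 1 rose and 9 fell. The shares of all genes that rose in these pellets were 17.6%, 21.1%, 19.4% and 25.5%, and 15.8%, 19.6%, 18.1% and 25.9% fell. MYO18A (ENSG00000196535, chr17:29071124-29180412, minus strand), a Golgi-linked myosin of class XVIII, was at 42.6, 39.6 and 41.2 CPM in input, 72.5, 61.3 and 70.1 CPM in mock, 82.3, 70.1 and 72.4 CPM with dsRNA, 83.4, 63.4 and 68.9 CPM with silvestrol and 20.4, 9.39 and 7.77 CPM with PEG. It rose by 0.76 ± 0.11, 0.91 ± 0.12 and 0.84 ± 0.13 (edgeR adjusted p = 0.0041, 0.0024 and 0.0034). Its PEG fall of -1.68 ± 0.31 (0.0024) was the largest among the 82 genes in that comparison, and PEG replicate 1 was more than 2 times as high as the other PEG libraries. MYO9B, a myosin with a GTPase-activating domain in its tail, rose by 0.85, 0.96 and 0.97 and fell with PEG (-0.75 ± 0.15, 0.0029). These calls of MYO18A and MYO9B held with any 1 library left out. Under the GC offset the MYO18A rises were 0.45, 0.54 and 0.50 and still passed (0.047, 0.017 and 0.043). Those of MYO9B were 0.49, 0.53 and 0.58, of which mock did not pass (0.051) and did with offset and block (2.4e-05).

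The 5 class I myosins, short-tailed motors that bind membranes, were picked out after their values were seen. None rose in mock, dsRNA or silvestrol pellets, and the median log2 fold change was 0.03, -0.02 and 0.03, while the other 13 unconventional myosins had medians of 0.56, 0.64 and 0.64. MYO1F was the 1 unconventional myosin that rose with PEG (0.63 ± 0.21, edgeR adjusted p = 0.036), a call kept only without input replicate 1 (up to 0.13 otherwise) and lost with library size only (0.28), with the GC offset (0.38, 0.14) and with offset and block (0.16).

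The transporters MYO5A, MYO6 and MYO10 were called less firmly. MYO5A, a carrier of organelles, rose in mock (0.38 ± 0.12, edgeR adjusted p = 0.045) and with dsRNA (0.41 ± 0.13, 0.038) and fell with PEG (-1.01 ± 0.18, 0.002). The mock call was kept only without input replicate 1 and the dsRNA call only without input replicate 1 or dsRNA replicate 1 (adjusted p up to 0.2 otherwise), and the silvestrol value of 0.36 ± 0.13 did not pass. It passed with the block (0.0083), with the GC offset (0.58, 0.010) and with library size only (0.41). MYO6, which walks to minus ends of actin, was at 70.4, 70.2 and 72.4 CPM in input and at 78, 130 and 115 CPM with dsRNA. Its rises with dsRNA (0.64 ± 0.18, 0.026) and silvestrol (0.48 ± 0.16, 0.047) were kept only without replicate 1 of the pellet (adjusted p up to 0.16 otherwise), and its mock value of 0.53 ± 0.18 did not pass but did with the block (0.00031), with the GC offset (0.71, 0.027) and with library size only (0.59). MYO10, a filopodial motor, was highest in replicate 1 of every group, at 215, 136 and 144 CPM in input and 283, 206 and 224 CPM in mock. Its values of 0.56, 0.64 and 0.63 did not pass but did with the block (4.9e-06, 0.0004 and 0.0002) and with library size only. It fell with PEG (-0.75 ± 0.24, 0.028), a call lost without PEG replicate 2 or 3 (up to 0.075).

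Among the 15 kinesins that carry cargo, 6 rose in mock, 7 with dsRNA and 6 with silvestrol and none fell, with medians of 0.50, 0.61 and 0.58. With PEG none rose and 8 fell, and against mock 13 fell. Against input 17.6%, 21.1%, 19.4% and 25.5% of all genes rose in these pellets, and 15.8%, 19.6%, 18.1% and 25.9% fell. For PEG against mock 32.2% of all genes fell. KIF5B (ENSG00000170759, chr10:32009010-32056431, minus strand), the ubiquitous heavy chain of kinesin 1, was at 336, 226 and 228 CPM in input, 487, 431 and 467 CPM in mock, 542, 506 and 503 CPM with dsRNA, 503, 459 and 425 CPM with silvestrol and 202, 149 and 170 CPM with PEG. It rose by 0.85 ± 0.18, 1.02 ± 0.18 and 0.84 ± 0.18 (edgeR adjusted p = 0.011, 0.0043 and 0.0099) and fell with PEG (-0.56 ± 0.20, 0.043). Without input replicate 3 the mock and silvestrol values were just past the threshold (0.052 and 0.0502), and the PEG call was lost without input replicate 1 or PEG replicate 2 or 3 (up to 0.101), with the GC offset (-0.25, 0.19) and with offset and block (0.096). The other kinesin 1 heavy chains were KIF5A, which rose by 0.64, 0.71 and 0.58 (the last lost without input replicate 2 or 3, at up to 0.059), and KIF5C, which was not called in any pellet.

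Of the kinesin 3 family, carriers of vesicles and mitochondria, KIF1A, KIF1B and KIF13B differed from one another. A picture of the whole family is not given here. KIF1A rose by 0.67, 0.81 and 0.83 on the log2 scale and fell with PEG (-1.09 ± 0.16, edgeR adjusted p = 0.00081). Corrected for GC content the rises were 0.27, 0.33 and 0.38 and did not pass (0.23, 0.13 and 0.14), and with offset and block they did (0.0031, 0.0011 and 0.0025). KIF1B, with the longest exons of the cargo kinesins (17720 nt), was at 135, 119 and 119 CPM in input, 166, 115 and 121 CPM in mock and 82.3, 65.5 and 67.6 CPM with PEG. Its values of 0.14, 0.08 and 0.14 in the first 3 pellets did not pass (adjusted p between 0.53 and 0.71), and it fell with PEG (-0.75 ± 0.14, 0.0025). KIF13B was at 22 CPM in input replicate 1 and at 45.2 and 43.5 CPM in the others, and this gap between replicate 1 and the rest recurred in the mock, dsRNA and silvestrol groups. Its values of 0.60 ± 0.30, 0.70 ± 0.30 and 0.64 ± 0.28 did not pass but did with the replicate block (4e-06, 0.00038 and 0.00025).

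The 11 mitotic kinesins, which build and move the spindle or act in cytokinesis, gave 3, 4 and 3 rises and 1 fall in each of the mock, dsRNA and silvestrol pellets. With PEG 3 rose and 5 fell. Among all genes 17.6%, 21.1%, 19.4% and 25.5% rose and 15.8%, 19.6%, 18.1% and 25.9% fell. KIF20B, a cytokinesis kinesin with a coding sequence of 5460 nt, was at 124, 78.9 and 79.5 CPM in input, 202, 164 and 183 CPM in mock, 208, 170 and 196 CPM with dsRNA, 198, 159 and 166 CPM with silvestrol and 72.4, 54.4 and 71.6 CPM with PEG. It rose by 0.99 ± 0.20, 1.07 ± 0.20 and 0.92 ± 0.20 (edgeR adjusted p = 0.01, 0.0053 and 0.0099), while its PEG value of -0.47 ± 0.22 (0.097) did not pass. It passed with the block (0.034) and with library size only (-0.79), and was -0.08 with the block and the GC offset (0.59). KIF22, a chromokinesin that pushes chromosome arms, rose in all 4 pellets, by 0.56, 0.63, 0.64 and 0.87, and 13.0% of its exon length is shared with another gene. Under the GC offset its mock and dsRNA values were 0.31 and 0.32 and did not pass (0.065 and 0.075), with offset and block they did (0.00086 and 0.0021), and the silvestrol value was 0.36 (0.043).

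KIF18A, which dampens chromosome movements, was the 1 mitotic kinesin that fell in the first 3 pellets (-0.42, -0.43 and -0.52, edgeR adjusted p = 0.041, 0.035 and 0.019). The mock and dsRNA calls were lost without input replicate 3 or any 1 library of the pellet, and the silvestrol call without silvestrol replicate 2 or 3 (up to 0.13). Corrected for GC content they were -0.27, -0.24 and -0.31 and did not pass (0.10, 0.12 and 0.066), and with offset and block they did (0.0032, 0.012 and 0.0047). Its PEG value of -0.34 ± 0.17 did not pass, passed with the block (0.03) and was 0.01 with block and offset (0.94). KIF20A (0.57 ± 0.12, 0.0042) and KIF2C (0.34 ± 0.12, 0.045), a cytokinesis kinesin and a microtubule depolymerase, rose with PEG and were not called elsewhere against input. With library size only the KIF20A value was 0.23 and that of KIF2C -0.004, and neither passed. The KIF2C call was kept only without input replicate 1, and with the GC offset the value was 0.28 (0.083, and 0.071 with the block). KIF11, the spindle motor Eg5, fell with PEG (-0.75 ± 0.21, 0.015), and its values of -0.24, -0.39 and -0.29 in the other pellets did not pass but did with the block (0.016, 0.013 and 0.03). With block and GC offset those were -0.07, -0.15 and -0.06 and did not pass (0.41, 0.054 and 0.54), and the PEG value was -0.41 (0.014). KIF4A also fell with PEG (-0.39 ± 0.14, 0.047), a call that was lost without any 1 input or PEG replicate 2 and with the GC offset (-0.33, 0.061), but not with offset and block (0.037). KIF14 rose with dsRNA (0.64 ± 0.18, 0.024, kept only without input replicate 1) and fell with PEG (-1.17 ± 0.27, 0.0064). KIF23, the motor of the centralspindlin complex, had values of -0.35, -0.32, -0.33 and -0.30 in the 4 pellets and passed in none of them, and with the block the mock (0.0013) and silvestrol (0.02) values passed. With block and GC offset they were -0.15 (0.057) and -0.09 (0.34).

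Among the other 9 kinesins, KIF7, a ciliary regulator of Hedgehog signalling, gave the largest rise of the 82 genes with dsRNA and with silvestrol. It was at 50.2, 54.8 and 62 CPM in input, 110, 102 and 112 CPM in mock, 133, 109 and 114 CPM with dsRNA, 137, 111 and 110 CPM with silvestrol and 47.1, 45.3 and 53.8 CPM with PEG. The log2 fold change was 0.99 ± 0.12, 1.13 ± 0.13 and 1.13 ± 0.14 (edgeR adjusted p = 0.0036, 0.0024 and 0.0024), and -0.14 ± 0.12 with PEG (0.36). Of its exon length 11.8% is shared with TICRR. Its rises under the GC offset were 0.49, 0.55 and 0.57 and still passed (0.019, 0.010 and 0.019). KIF26A, a kinesin without ATPase activity, rose by 0.88, 1.00 and 1.00 and fell with PEG (-0.88 ± 0.18, 0.0036). Those values under the GC offset were 0.22, 0.23, 0.26 and -1.36. The rises did not pass (0.45, 0.39 and 0.39), and with offset and block they did (0.013, 0.012 and 0.013).

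In mock, dsRNA and silvestrol pellets coding length ordered the motor genes more than the rest of the exons or total exon length did. Across the 82 genes Spearman's rank correlation of the log2 fold change with the longest coding sequence was 0.59 in mock, 0.59 with dsRNA and 0.62 with silvestrol, and -0.42 with PEG. Without the 8 dynein light chains it was 0.52, 0.50, 0.54 and -0.34. With the exon length outside that coding sequence, the rank correlation over the 82 genes was -0.01, 0.06, 0.02 and -0.30. With total exon length it was 0.39, 0.44, 0.42 and -0.48, so with PEG it was further from 0 than that with coding length. Over all 13523 kept protein-coding genes with both values, the rank correlation with coding length was 0.43, 0.43, 0.43 and -0.45, and with the rest of the exons 0.07, 0.06, 0.06 and -0.41. These are descriptions across genes, which share the same libraries and are not independent replicates.

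By coding length in 3 nearly equal parts, the 28 genes with the shortest coding sequences (267 to 2880 nt) had 4 rises and 9 falls with dsRNA. The 27 in the middle (2889 to 5478 nt) had 13 rises and 1 fall, and the 27 longest (5535 to 13938 nt) had 13 rises and no fall. With PEG the same parts had 13 rises and 6 falls, 2 and 12, and 0 and 12. Over all genes 21.1% rose and 19.6% fell with dsRNA, and 25.5% rose and 25.9% fell with PEG. GC content moved with the values as well, with a rank correlation of 0.39, 0.34 and 0.43 over the 82 genes in mock, dsRNA and silvestrol and 0.00 with PEG, and held constant it left the rank correlation with coding length at 0.56, 0.56, 0.59 and -0.43. With log2 fold changes from the GC offset the rank correlation with coding length was 0.57, 0.53, 0.60 and -0.50.

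Light chains of the myosins and kinesins, and other partners of the motors, were described from a list of 40 genes, of which 38 passed the count minimum. In mock, dsRNA and silvestrol pellets 6, 7 and 7 of the 38 rose and 10, 13 and 11 fell, and with PEG 16 rose and 11 fell. Among all genes 17.6%, 21.1% and 19.4% rose and 15.8%, 19.6% and 18.1% fell in the first 3 pellets, and 25.5% rose and 25.9% fell with PEG. The list ran from CAPZB, the capping protein subunit of dynactin (-1.13 with dsRNA), to HOOK2, a dynein adaptor (1.16), and with PEG from TRAK2, a mitochondrial adaptor (-1.15), to MYL6 (1.33). Of the 6 myosin light chains none rose, and 3, 4 and 3 fell in the first 3 pellets, and with PEG all 6 rose. MYL12A and MYL12B, regulatory light chains of the non-muscle myosins, fell with dsRNA (-1.07 and -1.03) and rose with PEG (1.02 and 0.56). The log2 ratio of MYH9 to MYL6, an essential light chain of the same motor, was 2.02 ± 0.0726 (SD, n = 3) in input, 2.55 ± 0.333 in mock, 3.20 ± 0.31 with dsRNA, 2.85 ± 0.143 with silvestrol and -0.66 ± 0.421 with PEG, without overlap with input in any pellet (exact permutation p = 0.1 each, the smallest possible).

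Of the kinesin light chains, KLC1 and KLC2 rose in all 3 of the mock, dsRNA and silvestrol pellets (0.44, 0.50 and 0.46, and 0.40, 0.50 and 0.53 on the log2 scale), and none of the 4 KLC genes fell there. With PEG KLC3 (0.53) and KLC4 (0.79) rose and KLC2 fell (-0.42). Their coding sequences, 1554 to 1917 nt, are longer than those of the other light chains, which run from 267 to 714 nt.

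Between the mock, dsRNA and silvestrol pellets themselves edgeR called none of the 82 genes and 0% of all genes in any of the 3 comparisons. At an unadjusted p under 0.05 edgeR gave 0 motor genes for dsRNA against mock, 0 for silvestrol against mock and 2 for dsRNA against silvestrol. Of all 16612 genes 374, 35 and 330 passed that threshold. DESeq2 called none of the 82. It called 64 of 15001 genes lower with dsRNA than in mock and 68 of 11781 lower than with silvestrol. The log2 fold changes of the 82 genes ran from -0.45 to 0.24, from -0.35 to 0.22 and from -0.35 to 0.24 in the 3 comparisons. With the replicate number as a block 1 gene was lower and none higher with dsRNA than in mock, where 2.65% of all genes were lower and 0.15% higher. For dsRNA against silvestrol 1 was lower and 1 higher, where 2.49% and 0.235% of all genes were. None was called for silvestrol against mock. With the block and the GC offset together, 5 of the 82 genes were higher and 1 lower with dsRNA than in mock. Of all 16612 genes 131 were higher and 438 lower in that fit. For dsRNA against silvestrol 1 was higher and 1 lower, where 92 and 436 of all genes were.

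With the block alone the lower gene was MYO1D, a class I myosin. It was at 26.5, 41.7 and 36.3 CPM in mock, 23.2, 32 and 29.2 CPM with dsRNA and 27.8, 36.6 and 35.7 CPM with silvestrol. In each of the 3 replicates the dsRNA library was the lowest of the 3, while the groups overlapped. Without the block the dsRNA value was -0.31 ± 0.20 against mock and -0.24 ± 0.17 against silvestrol (adjusted p = 1.0 in both), and with the block it was -0.30 (edgeR adjusted p = 0.0044) and -0.24 (0.013). KIF14, a cytokinesis kinesin, was at 111, 106 and 108 CPM with dsRNA and at 104, 83.6 and 89.8 CPM with silvestrol, without overlap. It was higher with dsRNA by 0.24 ± 0.10 (adjusted p = 1.0), and with the block by 0.24 (0.0093).

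Against mock, a comparison that does not use the input, 6 of the 67 long chains rose with PEG and 41 fell. Of the 8 light chains 4 rose and 1 fell, while 31.3% of all genes rose and 32.2% fell. DYNLRB1 rose by 2.00 ± 0.15, DYNLL1 by 1.90 ± 0.14 and DYNLT1 by 1.54 ± 0.12 on the log2 scale (edgeR adjusted p = 7.1e-06, 6.9e-06 and 8.2e-06). MYO18A (-2.39 ± 0.31), MYH14 (-2.05 ± 0.22) and MYH9 (-1.82 ± 0.23) fell most (0.0001, 3.2e-05 and 8.2e-05). All 6 calls held with 1 library left out and kept their direction with library size only. DYNC1I1 (1.30), DYNC1I2 (1.42) and DYNC1LI1 (1.17) rose together with the light chains, and DYNC1H1 (-0.74), DYNC2H1 (-0.48) and DYNC1LI2 (-1.08) fell. The DYNC2H1 call was lost without mock replicate 3 or PEG replicate 2 or 3 (adjusted p up to 0.16). DYNLL2 fell by 0.38 on the log2 scale (0.046), a call kept only without mock replicate 3.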

How the data were processed

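Poly(A) RNA-seq of U2OS extract inputs and pellets gave 15 libraries, 3 in each of 5 groups. The deposited values are raw read counts per gene: per the submitters' processing notes the authors used Trimmomatic 0.36, STAR 2.5.2b and featureCounts of Subread 1.5.2 on GRCh38. The strand setting and the handling of multi-mapping reads are not given in the sources used here.

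Genes were kept (16612) if 2 or more libraries of every group held 10 counts or more. Each comparison was fitted to its 6 libraries with edgeR 4.0.16 (TMM scaling, quasi-likelihood F test, two-sided) in R 4.3.3, and p-values were adjusted by Benjamini-Hochberg over all kept genes, with a threshold of 0.05. Within-library ratios were set on log2 CPM with a prior count of 2 and compared by exact permutation tests in scipy 1.17.1. Exon lengths and gene coordinates were those given with the deposited counts. Coding sequences and their lengths, GC content and gene types came from GENCODE 29, whose gene IDs matched 56898 of the 57500 in the files. Start and end were the same in both sources for 54784 genes. The code was tested on simulated data.

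The replicate numbers of the labels were checked as pairs. Deviations from the group means correlated at 0.131 to 0.861 (median 0.543) in the 30 pairs of libraries with the same number. In the 60 pairs with different numbers they correlated at -0.746 to 0.583. Deviations cancel within a group, which lowers the values for different numbers. Replicates 2 and 3 also correlated across numbers: input 2 gave 0.583 with mock 3 and 0.583 with mock 2. For mock 2 the value was 0.539 with dsRNA 3 and 0.649 with dsRNA 2. The check thus sets replicate 1 apart more clearly than it pairs 2 and 3. The number was used as a block where named. Alternatives were DESeq2 1.42.0, its size factors, library size only, other count filters, all groups in one fit, the block, a GC offset (loess span 0.3) and leaving out each library.

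The members, gene lists and rule for named genes were chosen with earlier results of these data known. The rule names a list of 26 motor genes (1 of which is not reported here), the 3 largest called rises and falls of each comparison with input and of PEG against mock, and any gene called between mock, dsRNA and silvestrol pellets. DYNC2I1, DYNC2I2, DYNLT2, MYH3, MYH7B, MYO1F, KIF1A, KIF5A, KIF5C, KIF18A and the genes listed by pattern were named after their values were seen. Intervals were not computed, since counts of PCR-amplified reads are not independent molecules, and the p-values measure the spread between 3 libraries a group.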

Additional observations from a re-analysis of the deposited data

How the results depend on the processing

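For the genes of the naming rule, 2351 of 2665 recomputed values kept their direction and their side of the threshold, 156 lost and 151 gained a call, and 7 changed sign. Of those 7, DYNLT3 went to -1.33 against input and -0.74 against mock without PEG replicate 3, which alone was high, and ranged up to 0.76 and 1.36 without PEG replicate 1. With library size only, KIF2C was -0.0044 for PEG against input, and KIF23 and KIF22 were -0.35 and -0.10 for PEG against mock. DYNLT4, counted at under 1 CPM, was -0.13 with silvestrol under the GC offset and -0.10 with the block and GC offset together. The cause was not tested.

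The number of motor genes called against input in mock pellets (32) became 60 with the replicate block, 21 with the GC offset and 54 with both, and 15 to 35 with 1 library left out. With dsRNA (40) it was 25 to 42 with 1 library left out. With silvestrol (34) it became 60 with the block and 53 with the block and GC offset, and 22 to 37 with 1 library left out. Between dsRNA and mock it went from 0 to 1 with the block and 6 (5 higher and 1 lower) with the block and GC offset. Between dsRNA and silvestrol it went from 0 to 2 with either. The block changed no other count of calls by over 1.5 times. The causes were not tested. A different contrast, of members with exon lengths above against below the median whatever their role, was 0.42 in mock, 0.52 with dsRNA, 0.45 with silvestrol and -0.33 with PEG. With DYNC1H1, DYNC2H1, MYH and KIF5 genes as the only long chains, the difference of long and light chains was 1.22 with dsRNA and 1.20 with silvestrol. Depth limits MYH4, DYNLT4 and KIF25, which had a mean under 1 CPM in input.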
